A study of Mus musculus with 19 samples.

Results

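Genes of the Wnt pathway that act at the cell surface and at both ends of the signal were measured by RNA-seq in cells sorted from mouse anterior prostates. The members were chosen by gene symbol. They were the genes with a numbered Wnt, Frizzled receptor (Fzd), secreted frizzled-related protein (Sfrp) or Dickkopf (Dkk) symbol. To these were added Dkkl1, Wif1, Lrp5, Lrp6, Ror1, Ror2, Porcn, Wls, Axin1, Axin2, Tcf7, Tcf7l1, Tcf7l2 and Lef1. Related genes under other symbols, such as Frzb, were not members. The rule found 51 members among 24343 gene symbols, 19 of them Wnt ligands, 10 Frizzled receptors and 10 counted here as secreted antagonists, Dkkl1 among them. The rule reads gene symbols and no measured value, but it was set with earlier results of these data known.

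The study sorted basal, luminal and stromal cells by flow cytometry from mice carrying the Lgr5-DTR-eGFP allele and treated with DT, and from wild type control mice. The allele places the receptor for diphtheria toxin, with a green fluorescent protein, under the control of the Lgr5 gene, so that the toxin kills cells that express Lgr5. The design addresses what happens to the other cells of the gland once the Lgr5-expressing cells have been ablated. There were 3 wild type and 3 Lgr5-DTR libraries of basal cells, 3 and 3 of luminal cells, and 3 and 4 of stromal cells, 19 in all. The labels name purchased C57BL/6 mice and a toxin-receptor line made elsewhere, and they give no age, no toxin dose and no statement that the wild type mice received toxin. Whether each library is a separate mouse is not said either, and the tests therefore weigh differences against a library-to-library spread that could be technical.

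Wnt proteins are secreted lipid-modified ligands that bind Frizzled receptors together with the co-receptors Lrp5 and Lrp6. Binding recruits the Axin scaffold to the membrane, beta-catenin is then spared from destruction, and TCF and LEF factors in the nucleus turn from repression to activation of target genes. Some ligands instead signal through Ror receptors to cell shape and polarity, and secreted antagonists bind either the ligands (Sfrp proteins, Wif1) or the co-receptors (Dickkopf proteins). In the prostate the pathway is known for its role in budding and ductal growth and for signals that pass between the stroma and the epithelium.

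The libraries held 5.26 to 9.38 gigabases on RefSeq transcripts (median 7.73), and 9209 to 10819 genes reached 1 FPKM (fragments per kilobase of transcript, scaled to the mapped fragments of the library, a scale on which levels of different genes can be compared). Lgr5 in the wild type stroma averaged 44.2 ± 29.0 FPKM (SD, n = 3), and in the Lgr5-DTR stroma 0.916 ± 0.338 (n = 4), without overlap. The exact permutation test, two-sided, gave p = 0.0571, the smallest that this design allows. In luminal cells Lgr5 was at 1.54 to 1.99 FPKM in wild type and 0.554 to 0.671 in Lgr5-DTR libraries, also without overlap (exact permutation p = 0.1, again the smallest possible). In basal cells its ranges overlapped, at 0.659 to 0.857 and 0.551 to 1.47 FPKM. In these sorted bulk samples, fewer cells of a type and less RNA per cell cannot be told apart. The mean log2(FPKM + 1) of 10 fibroblast markers was 6.68 to 7.79 in stromal libraries, that of 8 basal markers 7.74 to 8.19 in basal libraries, and that of 9 luminal markers 8.8 to 9.25 in wild type and 10.27 to 10.7 in Lgr5-DTR luminal libraries. One of these markers, Tgm4, is listed at 0 in all 3 wild type luminal libraries, with the software's mark for a locus over its depth limit, and at 8420 to 8770 FPKM in the Lgr5-DTR ones, so it was left out of the luminal test. Luminal markers also stood at 7.64 to 8.31 in the basal libraries. In 7 of the 19 libraries the files mark 424 transcripts as having too little data, which no other library shows. In the same 7, FPKM lies above the upper limit of its own interval for 2552 to 3112 transcripts, against 0 to 3 in the others. These 7 libraries are treated as a set of their own below. They comprised 2 Lgr5-DTR and 1 wild type basal library, 1 and 2 luminal libraries, and 1 and 0 stromal libraries.

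Promoter sequences from RefSeq (build GRCm38.p6) were at hand for 35 of the 51 members. They are shown for the members that fell in basal cells after ablation, so that their sequence can be read for the site bound by the TCF and LEF factors at the nuclear end of the pathway. Each run holds the 250 bases before a start site, 5′ to 3′ on the gene's strand. The TCF and LEF core motif CTTTGAT, or its reverse complement ATCAAAG, is in capitals where it occurs. Wnt11 has a start site at each end of a short stretch of chromosome 7 on the plus strand, with upstream sequence at chr7:98834862-98835111 and chr7:98838595-98838844. Tcf7l1 lies on the minus strand, with upstream sequence at chr6:72789046-72789295. Ror1 and Wif1 lie on the plus strand, with upstream sequence at chr4:100095541-100095790 and chr10:121033754-121034003.
Wnt11, upstream start site: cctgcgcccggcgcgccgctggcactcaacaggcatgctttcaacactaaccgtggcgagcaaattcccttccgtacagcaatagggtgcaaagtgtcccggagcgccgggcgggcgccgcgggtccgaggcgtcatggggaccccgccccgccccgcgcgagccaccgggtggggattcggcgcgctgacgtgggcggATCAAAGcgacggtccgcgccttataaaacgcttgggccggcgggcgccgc
Wnt11, downstream start site: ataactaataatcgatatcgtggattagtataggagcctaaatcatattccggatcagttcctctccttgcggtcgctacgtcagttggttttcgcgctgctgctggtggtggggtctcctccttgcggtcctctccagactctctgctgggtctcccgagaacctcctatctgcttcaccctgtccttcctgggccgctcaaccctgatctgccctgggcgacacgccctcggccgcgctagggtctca
Tcf7l1: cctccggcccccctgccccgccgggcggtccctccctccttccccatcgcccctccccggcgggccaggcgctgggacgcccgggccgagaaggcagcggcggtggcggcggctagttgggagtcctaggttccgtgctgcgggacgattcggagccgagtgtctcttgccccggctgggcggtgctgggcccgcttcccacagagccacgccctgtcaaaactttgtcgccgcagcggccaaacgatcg
Ror1: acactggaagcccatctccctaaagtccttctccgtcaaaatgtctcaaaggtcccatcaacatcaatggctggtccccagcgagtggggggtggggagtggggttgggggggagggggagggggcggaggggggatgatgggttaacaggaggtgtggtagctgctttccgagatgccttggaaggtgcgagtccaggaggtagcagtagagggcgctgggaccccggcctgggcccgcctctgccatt
Wif1: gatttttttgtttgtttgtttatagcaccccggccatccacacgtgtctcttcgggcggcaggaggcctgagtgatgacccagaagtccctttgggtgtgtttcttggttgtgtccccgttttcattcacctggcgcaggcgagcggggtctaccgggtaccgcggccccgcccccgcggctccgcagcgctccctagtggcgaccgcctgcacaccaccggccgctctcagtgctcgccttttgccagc
The motif occurred in 1 of these 5 windows, at the upstream start site of Wnt11, its first base 51 bases before the start. Over both strands, and over 250 bases before to 50 after the start, it was found in 3.73% of the 32851 promoters in the table. Of the 43 promoters of members it was found in 2, those of Wnt11 and Wnt5b, among 35 members with a promoter. Both also matched the longer form CTTTGATC, which overlaps the shorter one and occurred in 0.938% of all promoters. A match is a description of the letters only. The estimate that the authors' software made for each start site put most Wnt11 in wild type basal cells at the upstream site, 12.4 ± 1.01 FPKM (SD, n = 3) against 5.18 ± 5.25 at the downstream site. In Lgr5-DTR basal cells the upstream site was at 3.45 to 8.1 FPKM, below the 11.5 to 13.5 of wild type, while at the downstream site the genotypes overlapped, with wild type at 0, 10.5 and 5.04 and Lgr5-DTR at 3.31, 1.59 and 1.49.

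Of the 51 members, 11 stayed at or below 1 FPKM in every library: Wnt1, Wnt3, Wnt3a, Wnt7a, Wnt8a, Wnt8b, Wnt9b, Wnt10b, Wnt16, Dkk1 and Dkk4. A further 29 reached a mean of at least 5 FPKM in at least 1 of the 6 groups. The remaining 11 lay between. Thus 9 of the 19 ligands were at or near the floor in every population and genotype, while all 10 Frizzled receptors exceeded 1 FPKM in some library.

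**Figure D1:**
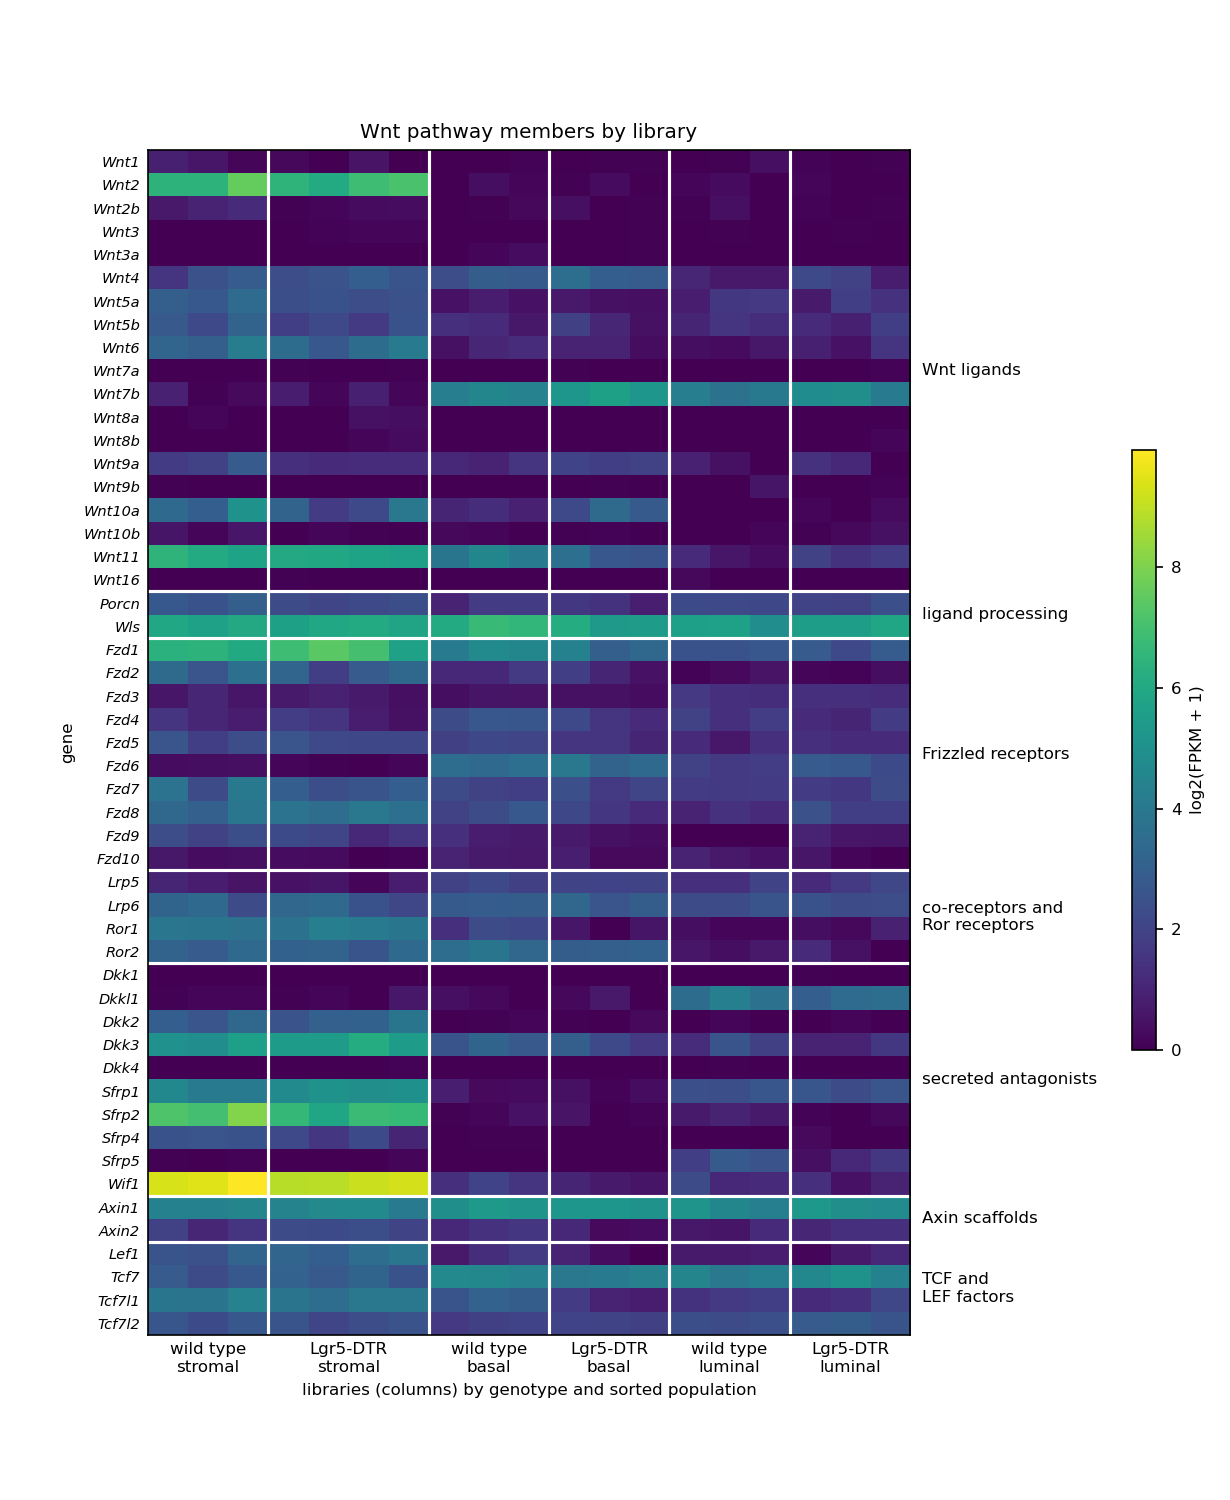
Levels of the 51 members (rows, by role) in the 19 libraries (columns, by genotype and sorted population), as log2(FPKM + 1). Wif1, Sfrp2, Wnt2 and Fzd1 stand out in the stromal columns, Wnt7b in the basal and luminal columns, and Dkkl1 in the luminal columns.

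The unablated gland was compared first, with limma on log2(FPKM + 1) over the 9 wild type libraries. Genes had to reach 1 FPKM in at least 3 libraries, p-values were adjusted by the Benjamini-Hochberg method over all genes tested, and a gene was called at an adjusted p under 0.05. The other 13 members were not tested. A member present in 1 population passed this filter through that population alone, so the counts and medians that follow are descriptions. In wild type stromal against basal cells 29 of the 38 members tested were called, 23 higher in stromal and 6 higher in basal cells, where 57.0% of all genes tested were called. The members' median log2 difference was 1.21 in favour of the stroma, against 0.00 for all genes. For stromal against luminal cells 25 were higher and 8 lower, with 67.8% of all genes called, and the median was 1.73 against -0.23. For basal against luminal cells 15 were higher and 7 lower, with 62.3% of all genes called, and the median was 0.49 against -0.14. Of the 38 members whose mean reached 1 FPKM in some group, 26 had their highest wild type mean in stromal cells, 9 in basal cells and 3 in luminal cells. Scaling by a trimmed mean moved the median of all genes by 0.18 for stromal against basal cells, where the share of called genes that were higher went from 51.2% to 61.1%. It moved it by 0.26 for stromal against luminal cells, where that share went from 42.1% to 52.2%. Quantile normalization moved it by 0.17 for basal against luminal cells, with a share of 40.9% turning into 50.6%. No called member changed direction under any scaling.

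Among the ligands, stromal cells carried 7 at higher levels than basal cells and 8 at higher levels than luminal cells, of 9 tested. Of 11566 genes tested, 3377 and 3298 were called higher in the stroma. Among these ligands Wnt2 passed the filter through the stroma alone, and Wnt10a, Wnt6, Wnt5a and Wnt9a would not have passed it without the stroma. The calls of these ligands are thus not independent of the filter. Wnt2, a ligand of mesenchyme in many organs, was at 85.0, 84.2 and 192 FPKM in the 3 wild type stromal libraries and below 0.31 FPKM in each wild type basal and luminal library. Wnt2 alone made up 48.2% of the summed ligand FPKM of the wild type stroma on average (40.4% to 58.2%). Wnt11, a ligand known mostly for beta-catenin-independent signalling, stood at 87.3, 66.4 and 54.2 FPKM in the stroma, 13.5, 22.8 and 16.5 in basal cells and 1.25, 0.532 and 0.25 in luminal cells. All 3 steps of that order passed the test, with log2 differences of 1.92 (SE 0.27) between stromal and basal cells and 3.48 (SE 0.27) between basal and luminal cells (adjusted p = 5.35e-05 and 3.64e-07). Wnt10a was also stromal, at 9.61, 6.93 and 33.5 FPKM, with 1.06, 1.49 and 0.902 in basal cells, and was listed at 0 in all 3 luminal libraries. Wnt6 was at 8.4, 7.15 and 17.2 FPKM in the stroma and at most 1.4 in the epithelial libraries. Wnt5a, the main ligand of Ror receptors, was at 6.96, 5.61 and 10.2 FPKM in the stroma, 0.403 to 0.733 in basal cells and 0.699 to 2.18 in luminal cells. Wnt5b followed with 3.58 to 8.03 FPKM in the stroma, 0.568 to 1.62 in basal and 1.06 to 1.83 in luminal cells. The third stromal library was the highest for Wnt2, Wnt10a, Wnt6, Wnt5a and Wnt5b, and the lowest for Wnt11.

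Wnt7b was the epithelial ligand. It stood at 18, 22.8 and 20.5 FPKM in wild type basal and 17.9, 12 and 15.2 in luminal cells, against 0.0283 to 0.862 in the stroma (stromal against basal log2 difference -4.02, SE 0.24, adjusted p = 2.8e-08). Basal and luminal levels of Wnt7b did not differ past the threshold (log2 difference 0.43, adjusted p = 0.145). It supplied 71.1% of the summed ligand FPKM of luminal cells and 41.8% of that of basal cells, where Wnt11 supplied 35.4%. Wnt4, known as a ligand of branching epithelia, was at 4.14 to 6.54 FPKM in basal cells, 1.85 to 6.51 in stromal cells and 0.593 to 1.11 in luminal cells. The stromal and basal levels of Wnt4 overlapped (adjusted p = 0.301), and the luminal ones lay below both. Wnt9a was at 2.35 to 6.27 FPKM in the stroma and at or below 1.87 in the epithelial libraries. Summed over the 19 ligands, wild type stromal cells held 241 ± 78.3 FPKM, basal cells 49.2 ± 8.93 and luminal cells 21.0 ± 2.62 (SD, n = 3 each).

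**Figure D2:**
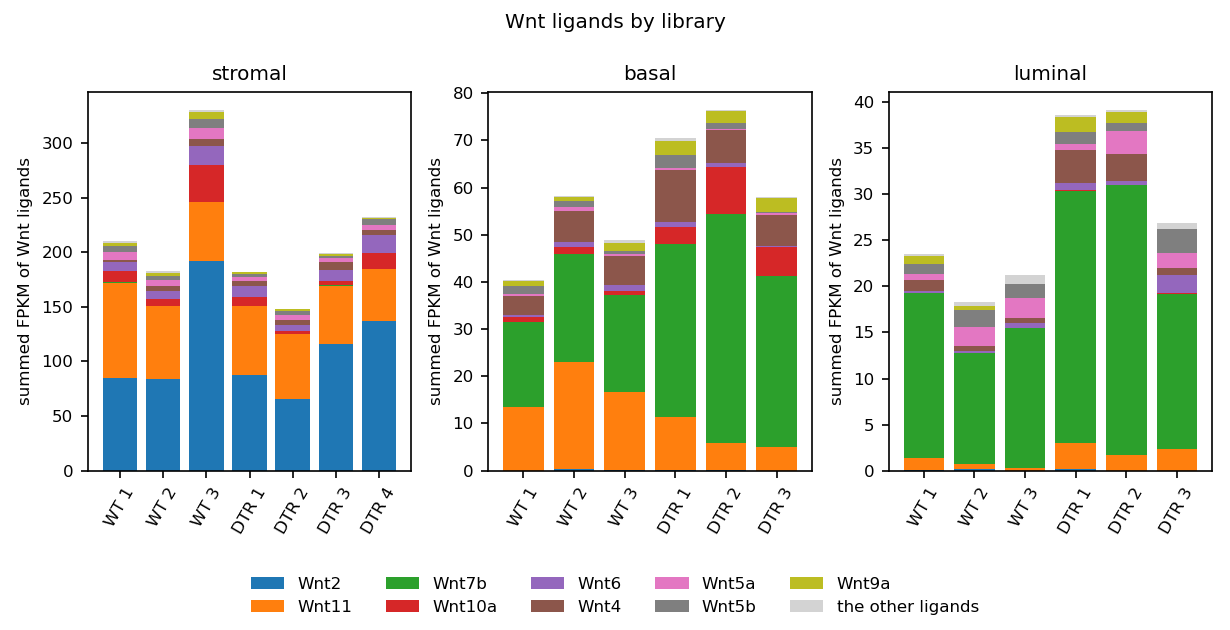
Summed FPKM of the Wnt ligands in each library, stacked by ligand, with a separate vertical scale for each population (WT, wild type; DTR, Lgr5-DTR; numbers are replicates). Wnt2 and Wnt11 fill most of the stromal bars and Wnt7b most of the luminal bars, while in the basal bars the Wnt11 share averages 35.4% in wild type and 10.6% in Lgr5-DTR libraries.

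The machinery that makes ligands fit for release was present everywhere. Wls, which carries Wnt proteins to the cell surface, stood at 59.5, 50.1 and 63.6 FPKM in the stroma, 66.7, 102 and 93.8 in basal cells and 48.2, 50.3 and 28.7 in luminal cells. Basal cells exceeded luminal cells (log2 difference 1.04, SE 0.23, adjusted p = 0.00189), and the difference from stromal cells did not pass (adjusted p = 0.0526). Porcn, the enzyme that attaches the lipid, was lowest in basal cells at 0.961 to 2.44 FPKM, against 4.66 to 7.17 in stromal and 3.47 to 3.75 in luminal cells. The difference of Porcn between basal and luminal cells (adjusted p = 0.022) was lost under 7 of 19 alternatives, including both scalings.

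Frizzled receptors divided between the populations. Fzd1 led in each of them, at 79.9, 86.2 and 65.4 FPKM in the stroma, 16.2, 25.5 and 22.6 in basal cells and 4.7, 4.62 and 5.58 in luminal cells, and both steps passed the test. Fzd1 made up 66.2% of the summed Frizzled FPKM in the stroma, 41.7% in basal and 28.9% in luminal cells. Fzd6, a receptor tied to planar polarity, ran the other way, at 10.7, 9.59 and 11.4 FPKM in basal, 2.89, 2.23 and 2.49 in luminal and 0.272 to 0.316 in stromal cells. The stromal against basal difference of Fzd6 was -3.15 on the log2 scale (SE 0.18, adjusted p = 1.74e-08). Fzd2, at 5.14 to 11.3 FPKM, Fzd7, at 3.88 to 15.1, and Fzd8, at 7.27 to 14, were highest in the stroma. In basal cells these 3 receptors ranged from 1.16 to 5.59 FPKM and in luminal cells from 0.0646 to 2.44. Fzd3, at 1.49 to 2.12 FPKM, was the only Frizzled gene with its highest mean in luminal cells, and Fzd4, at 3.98 to 5.53, had its highest in basal cells.

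Of the co-receptors, Lrp6 was at 3.79 to 9.43 FPKM over the 9 libraries, and no pair of populations passed the test. Lrp5 was lower in the stroma, at 0.454 to 1.03 FPKM, than in basal cells, at 2.73 to 3.55, and luminal cells, at 1.63 to 3.06 (log2 differences -1.23 and -0.83, adjusted p = 0.000533 and 0.00598). Ror1 was stromal, at 14, 13.3 and 12.6 FPKM, with 1.58, 4.02 and 3.41 in basal and at most 0.276 in luminal cells. Ror2 was shared by basal cells (10.8, 13.5 and 8.72 FPKM) and stromal cells (7.89, 6.23 and 9.6), which overlapped, and was at 0.304 to 0.604 in luminal cells. Basal exceeded luminal Ror2 by 3.01 on the log2 scale (SE 0.22, adjusted p = 2.5e-07).

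Secreted antagonists were largely stromal: 6 of 8 tested were higher in stromal than in basal cells and none was lower, beside 3377 of 11566 genes higher in the stroma. Dkk2, Sfrp2 and Sfrp4 passed the filter through the stroma alone, so their calls are not independent of it. Wif1, which binds Wnt ligands outside the cell, was the most abundant member of all, at 655, 702 and 986 FPKM in wild type stroma. In basal cells Wif1 was at 1.63, 2.98 and 1.9 FPKM and in luminal cells at 3.89, 1.14 and 1.36, a log2 difference of 7.95 (SE 0.30) between stromal and basal cells (adjusted p = 5.35e-10). Sfrp2, which also binds ligands, stood at 146, 125 and 275 FPKM in the stroma and below 1 FPKM in every epithelial library. Dkk3, a Dickkopf relative whose action on Wnt signals is not settled, was at 31.4, 28.1 and 47.6 FPKM in the stroma, 4.93 to 8.31 in basal and 1.41 to 4.92 in luminal cells. Sfrp1 followed at 24.2, 16.6 and 15.8 FPKM in the stroma, 4.27 to 5.35 in luminal cells and 0.195 to 0.77 in basal cells, and Dkk2 at 5.19 to 9.31 in the stroma and at or below 0.0921 elsewhere. Sfrp4 was at 4.64 to 5.2 FPKM in the stroma and at most 0.0453 elsewhere. A pair of genes from this group was luminal instead. Dkkl1, a Dickkopf-like gene counted here with the antagonists, was at 10.3, 18.5 and 12.1 FPKM in luminal cells and at most 0.319 in the other wild type libraries. Whether Dkkl1 acts as an antagonist was not tested. Sfrp5 was at 2.57, 6.01 and 4.81 FPKM in luminal cells and at most 0.074 elsewhere. Luminal cells exceeded basal cells by 3.63 for Dkkl1 and 2.39 for Sfrp5 on the log2 scale (limma log2 difference of basal against luminal cells -3.63 and -2.39, adjusted p = 6.79e-08 and 1.67e-06). Dkkl1 and Sfrp5 passed the filter through the luminal libraries alone, so these tests are not independent of it. The summed antagonist FPKM came to 1030 ± 267 in wild type stroma, 28.7 ± 6.49 in luminal cells and 9.37 ± 2.2 in basal cells (SD, n = 3 each). Dkkl1 made up 47.0% of the luminal sum on average.

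At the inner end of the pathway, Axin1, the constitutive scaffold of the destruction complex, was at 18.6 to 39.7 FPKM in the wild type libraries. Axin2, its inducible relative and a common readout of the pathway, was at 1.09 to 2.75 FPKM in the stroma, 1.16 to 1.98 in basal cells and 0.458 to 1.33 in luminal cells. Of the nuclear factors, Tcf7 was epithelial, at 20.2 to 24.7 FPKM in basal and 14.8 to 21.8 in luminal cells against 3.8 to 6.3 in the stroma. Tcf7l1, a factor that mostly represses targets, was at 13.5, 13.1 and 20.1 FPKM in the stroma, 4.98, 7.66 and 6.71 in basal cells and 1.74, 2.26 and 2.64 in luminal cells, and all 3 pairs differed past the threshold. Lef1 was at 4.54 to 8.37 FPKM in the stroma and at most 2.26 elsewhere, and Tcf7l2 was spread over the populations, at 2.14 to 5.57.

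After ablation, 6 of the 26 members tested in basal cells were called, 23.1%, beside 11.0% of all genes tested. With no filter on low values 3 members, Wnt10a, Wnt7b and Tcf7l1, were called. Ror1, Wif1 and Tcf7l1 would not have met the filter without their wild type libraries, nor Wnt10a without its Lgr5-DTR ones. Their tests are thus not independent of the filter. In the filtered fit Wnt10a and Wnt7b rose, and Tcf7l1, Ror1, Wnt11 and Wif1 fell. The members' median log2 difference was -0.30 and that of all genes 0.02. At an unadjusted p under 0.05 there were 15 members, where 27.7% of all genes passed, and 12 members had groups that did not overlap, 3 above and 9 below wild type, as did 31.1% of all genes tested. By role, 2 of 6 ligands tested rose and 1 fell, 1 of 4 co-receptors and Ror receptors, 1 of 2 antagonists and 1 of 3 TCF and LEF factors fell, and none of 7 Frizzled receptors passed the test, with a median of -0.68.

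In the mm10 build the 6 called genes lie at chr1:74792019-74804175 (Wnt10a), chr15:85535437-85581821 (Wnt7b), chr7:98835112-98854747 (Wnt11), chr4:100095791-100442545 (Ror1), chr10:121034004-121100642 (Wif1) and chr6:72626371-72789045 (Tcf7l1).

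Wnt10a, a ligand better known from skin, hair and teeth, was at 1.06, 1.49 and 0.902 FPKM in wild type basal cells and at 3.57, 9.84 and 6.07 after ablation. Every Lgr5-DTR library lay above every wild type library, and the second was the highest. Wnt10a rose by 1.72 on the log2(FPKM + 1) scale (SE 0.30, adjusted p = 0.00962), and its mean FPKM was 5.65 times higher. The adjusted p of Wnt10a ranged from 0.000253 to 0.0492 over 16 alternatives and never left the called side.

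Wnt7b, already the leading basal ligand, went from 18, 22.8 and 20.5 FPKM to 36.7, 48.7 and 36.4, a rise of 0.95 on the log2 scale (SE 0.17, adjusted p = 0.0101) and of 1.99 times in the mean. All 3 Lgr5-DTR libraries lay above all wild type ones. The call was lost without Lgr5-DTR replicate 2 and with the replicate number as a block, and its adjusted p ranged from 0.00284 to 0.0584 over 17 alternatives. The Wnt7b locus overlaps AU022754 and the files give no strand, so reads of the 2 genes cannot be told apart. Wnt9a, at 1.19, 0.909 and 1.87 FPKM in wild type and 3, 2.63 and 2.92 in Lgr5-DTR basal cells, stood just outside the threshold (log2 difference 0.75, adjusted p = 0.0502). Summed ligand FPKM in basal cells was 49.2 ± 8.93 in wild type and 68.3 ± 9.36 after ablation (SD, n = 3 each), and the Wnt7b share averaged 41.8% and 59.5%.

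Wnt11 fell while Wnt10a and Wnt7b rose. Its levels in basal cells were 13.5, 22.8 and 16.5 FPKM in wild type and 11.4, 5.52 and 4.94 after ablation, with all Lgr5-DTR libraries below all wild type ones and replicate 1 nearest to them. The fall of Wnt11 was 1.22 on the log2 scale (log2 difference -1.22, SE 0.30, adjusted p = 0.0373). The call was lost with no filter on low values, with the replicate number as a block, and without Lgr5-DTR replicate 2 or 3 or wild type replicate 2 or 3. The adjusted p of Wnt11 ranged from 0.000768 to 0.147 over 17 alternatives.

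Ror1, a receptor tyrosine kinase for Wnt ligands, was at 1.58, 4.02 and 3.41 FPKM in wild type basal cells and at 0.517, 0 and 0.494 after ablation, below 1 FPKM in each. The log2 difference of Ror1 was -1.55 (SE 0.29, adjusted p = 0.013). Ror1 passed the filter through its 3 wild type libraries alone, so its test is not independent of the filter, and with no filter the adjusted p was 0.0501. The call was also lost without Lgr5-DTR replicate 2 and with the replicate number as a block. Without any 1 of the 3 wild type libraries Ror1 fell under the filter on low values and was not tested. Ror2, the more abundant of the pair in basal cells, was at 10.8, 13.5 and 8.72 FPKM and at 6.71, 7.07 and 7.41. Those Ror2 groups did not overlap, and the difference of -0.55 did not pass (adjusted p = 0.0862).

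Wif1 was low in basal cells throughout, at 1.63, 2.98 and 1.9 FPKM in wild type and 1.04, 0.631 and 0.465 in Lgr5-DTR libraries (log2 difference -0.88, SE 0.23, adjusted p = 0.0443). Wif1 would not have met the filter without its wild type libraries, so its test is not independent of it. Its call was the weakest of the 6: it was lost under 10 of 16 alternatives, and its adjusted p ranged from 0.0101 to 0.172. The alternatives that lost it included no filter on low values and the set of 7 libraries as a covariate. It was also lost without Lgr5-DTR replicate 2 or 3 or wild type replicate 2 or 3.

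Tcf7l1 gave the smallest p of the 26. It went from 4.98, 7.66 and 6.71 FPKM to 2.45, 0.993 and 0.701, a log2 difference of -1.70 (SE 0.28, adjusted p = 0.0081), with no overlap. The wild type mean was 4.67 times the Lgr5-DTR mean. The call held in 15 of 16 alternatives, with adjusted p from 0.000186 to 0.0642. Tcf7l1 overlaps the predicted gene Gm15401. Tcf7, the most abundant of the family here, was at 24.7, 23.5 and 20.2 FPKM and at 15, 16.8 and 19.4, a difference of -0.40 that did not pass (adjusted p = 0.14).

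**Figure D3:**
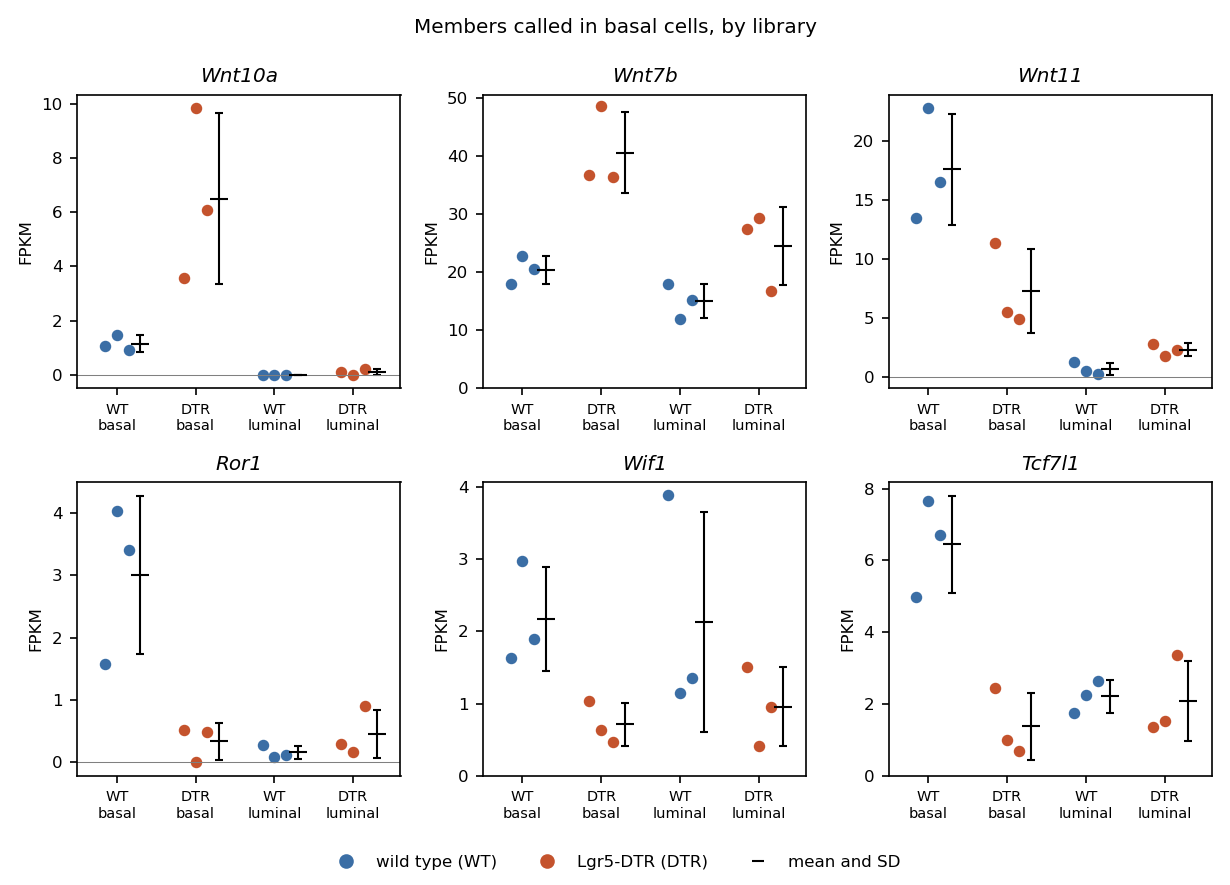
FPKM of the 6 members called in basal cells, in each wild type (blue) and Lgr5-DTR (orange) library of basal and luminal cells, with the mean and SD of each group in black. In basal cells the Lgr5-DTR points lie above all wild type points for Wnt10a and Wnt7b and below them for Wnt11, Ror1, Wif1 and Tcf7l1.

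Several further members had basal groups that did not overlap and adjusted p-values just above the threshold. Fzd4 was at 3.98, 5.53 and 5.37 FPKM in wild type and 3.64, 1.88 and 1.32 in Lgr5-DTR libraries (log2 difference -0.91, adjusted p = 0.0619). Fzd5 was at 2.71, 3.44 and 3.25 and at 1.84, 1.93 and 1.05 FPKM (-0.68, adjusted p = 0.0685). Axin2 was at 1.16, 1.66 and 1.98 FPKM and at 1.15, 0.202 and 0.254 (-0.80, adjusted p = 0.0937). In each case Lgr5-DTR replicate 1 or 2 was nearest to wild type. For Wls, at 66.7, 102 and 93.8 against 71.2, 40.7 and 42.6 FPKM, and Fzd1, at 16.2, 25.5 and 22.6 against 19.8, 7.11 and 9.06, replicate 1 lay inside the wild type range and the other Lgr5-DTR libraries below it (adjusted p = 0.0808 and 0.132).

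One library thus bears on the basal count. Without Lgr5-DTR basal replicate 1, 14 members were called, 3 higher and 11 lower, while the share of all genes called went to 23.7%: Wnt9a joined the ligands that were higher, and Axin2, Dkk3, Fzd1, Fzd4, Fzd5, Fzd8 and Wls joined those that were lower. In that fit Fzd1 differed by -1.29 (adjusted p = 0.00176), Wls by -1.03 (0.00398) and Axin2 by -1.07 (0.00517). Without Lgr5-DTR replicate 2 the members called were Wnt10a and Tcf7l1, 2 in all, beside 3.03% of all genes. Without wild type replicate 2, and likewise without wild type replicate 3, they were Wnt10a, Wnt7b and Tcf7l1, 3 in all, beside 3.52% and 3.88% of all genes. The count of members thus moved with that of all genes. Wnt10a and Tcf7l1 were called whichever of the 6 libraries was left out. Within the set of 7 libraries (2 Lgr5-DTR and 1 wild type) and outside it (1 and 2), the differences were 1.19 and 2.45 for Wnt10a, 0.66 and 1.3 for Wnt7b, -1.84 and -1.77 for Tcf7l1, -1.74 and -1.75 for Ror1, -1.47 and -1.29 for Wnt11 and -1.2 and -0.76 for Wif1.

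Markers of other cells also moved in the basal libraries. The 10 fibroblast markers summed to 735 to 885 FPKM in wild type and 317 to 645 in Lgr5-DTR basal cells, nearly all of it Dcn (730 to 880 and 313 to 636), with 3 and 2 of the 10 reaching 1 FPKM in some library. Of the 3 tested, 2 fibroblast markers were called lower. The receptor Pdgfra, which defines these fibroblasts, was at 0.12 to 0.363 and 0.0457 to 0.263 FPKM, and stromal Wnt2 was at or below 0.309 in all 6 basal libraries. The 9 luminal markers, all detected, summed to 4880 to 5690 and 6240 to 8590 FPKM, and 3 of them were called higher. The 8 basal markers summed to 8080 to 9080 and 5940 to 6440 FPKM, with 1 higher and 3 lower. The 8 smooth muscle markers summed to 44.5 to 48.9 and 14.1 to 17.4 FPKM, with 2 of 4 tested lower, and the 8 macrophage markers to 16.5 to 25.3 and 20.4 to 29.3, with 2 of 5 tested higher. The 8 endothelial markers summed to 4.95 to 8.65 and 11.7 to 26.8 FPKM, without overlap and with none of 4 tested called, and the 8 Schwann cell markers to 77.2 to 109 and 55.3 to 60.9, with 1 of 2 lower. The part of these cells in the differences of Wnt11, Wif1, Ror1, Tcf7l1, Wnt7b and Wnt10a was not tested.

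In stromal cells, the population with the highest wild type Lgr5, no member of 32 tested was called, beside 1.17% of all genes tested. At an unadjusted p under 0.05 there were 10 members, where 11.5% of all genes passed. Groups did not overlap for 8 members, and for 11.2% of all genes tested. Quantile normalization moved the median of all genes by 0.11. The median log2 difference was -0.11 for members and -0.09 for all genes. Leaving out any of the 7 libraries gave 0 calls as well, and the fit with all 19 libraries called Sfrp2 and Sfrp4, beside 366 of 10689 genes.

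**Figure D4:**
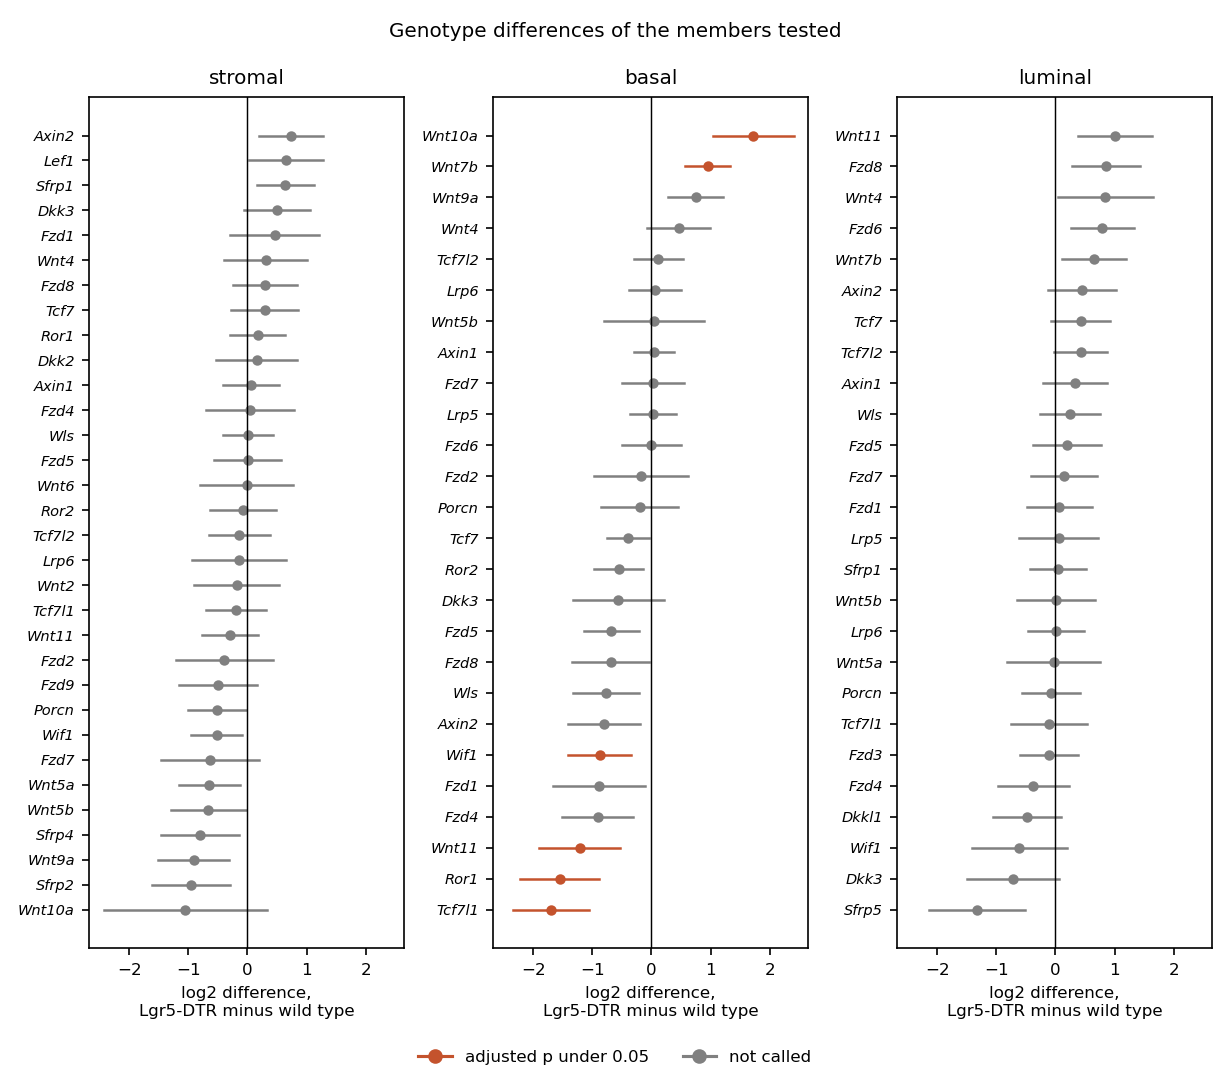
Log2 difference of every member tested, Lgr5-DTR minus wild type on the log2(FPKM + 1) scale, in each population, with bars for the 95% confidence interval of limma. Orange marks the 6 members called in basal cells, and none is marked in stromal or luminal cells.

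The most abundant stromal antagonists were lower in value without passing. Wif1 was at 655, 702 and 986 FPKM in wild type and 468, 487, 570 and 629 in Lgr5-DTR stroma, without overlap (log2 difference -0.52, SE 0.20, adjusted p = 0.316). Sfrp2 was at 146, 125 and 275 FPKM and at 96.6, 57.2, 108 and 100, again without overlap (-0.95, SE 0.30, adjusted p = 0.212). Sfrp1 stood the other way, at 24.2, 16.6 and 15.8 and at 25.2, 32.8, 29.5 and 30.5 FPKM (0.64, adjusted p = 0.263). Dkk3 was at 31.4, 28.1 and 47.6 FPKM and at 44, 44.3, 71.1 and 43.1, where the third Lgr5-DTR library stood apart from the others (0.50, adjusted p = 0.511). The summed antagonists were 1030 ± 267 (n = 3) and 720 ± 97.6 FPKM (SD, n = 4).

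The leading stromal ligands overlapped between the genotypes. Wnt2 was at 85, 84.2 and 192 FPKM in wild type and at 87.4, 65.9, 116 and 137 after ablation, and Wnt11 at 87.3, 66.4 and 54.2 and at 63, 59.3, 53.2 and 47.4, with overlap for both (log2 differences -0.18 and -0.29, adjusted p = 0.919 and 0.714). Wnt10a ranged from 6.93 to 33.5 and from 2.45 to 14.7 FPKM, on the log2 scale the widest spread among the stromal ligands named. Its difference of -1.05 carried an SE of 0.61. Wnt5a was at 6.96, 5.61 and 10.2 FPKM and at 4.23, 4.61, 4.04 and 4.58 (-0.64, adjusted p = 0.299), and Wnt9a at 2.35, 2.92 and 6.27 and at 1.57, 1.35, 1.41 and 1.4 (-0.91, adjusted p = 0.191). Neither overlapped. Wnt6 ranged from 7.15 to 17.2 and from 5.53 to 16.6 FPKM, Wnt5b from 3.58 to 8.03 and from 2.24 to 4.62, and Wnt4 from 1.85 to 6.51 and from 4.04 to 6.78.

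Axin2 was at 2.75, 1.09 and 1.91 FPKM in wild type stroma and at 3.88, 3.72, 4.21 and 3.16 after ablation, with every Lgr5-DTR library above every wild type one (0.74, SE 0.25, adjusted p = 0.249). Lef1 was at 5.05, 4.54 and 8.37 and at 8.54, 6.8, 10.6 and 14 FPKM (0.65, adjusted p = 0.409), and Fzd1 at 79.9, 86.2 and 65.4 and at 115, 169, 127 and 50.6 (0.46, adjusted p = 0.71). For Fzd1, the fourth Lgr5-DTR library was below every wild type library and the other 3 above. Ror1, at 14, 13.3 and 12.6 and at 12.4, 18.3, 16.8 and 13.7 FPKM, and Tcf7l1, at 13.5, 13.1 and 20.1 and at 13.2, 10.6, 14.8 and 14.9, overlapped. The remaining stromal members differed by -0.80 (Sfrp4) to 0.30 (Fzd8) on the log2 scale. The 10 fibroblast markers, all present, summed to 5980 to 6240 FPKM in wild type and 3210 to 3940 in Lgr5-DTR stroma, with 3 called lower, and the 8 smooth muscle markers to 251 to 359 and 364 to 523, with none of 7 tested called. Their part in the stromal values was not tested.

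In luminal cells no member of 26 tested was called, beside 3.14% of all genes tested, of which 83.6% were higher. Under quantile normalization that share was 66.8% and the median of all genes moved by -0.15. The share rests on the filter: without it 4 genes were called, 0% of them higher. At an unadjusted p under 0.05 there were 6 members, near the 22.7% of all genes that passed. Groups did not overlap for 5 members, and for 27.1% of all genes tested. Sfrp5, the luminal antagonist, was at 2.57, 6.01 and 4.81 FPKM in wild type and 0.325, 1.22 and 2.09 after ablation, without overlap (log2 difference -1.33, SE 0.36, adjusted p = 0.0777). Wnt11 was at 1.25, 0.532 and 0.25 FPKM and at 2.83, 1.74 and 2.32 (1.00, SE 0.28, adjusted p = 0.0831), so that its luminal values were the higher ones after ablation, where its basal level fell. Fzd6, at 2.89, 2.23 and 2.49 and at 6.29, 5.63 and 3.73 FPKM, and Fzd8, at 0.988, 1.65 and 1.36 and at 4.57, 2.62 and 2.6, also did not overlap (0.79 and 0.85, adjusted p = 0.0965 and 0.101).

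Wnt7b in luminal cells was at 17.9, 12 and 15.2 FPKM in wild type and 27.4, 29.3 and 16.8 after ablation, with replicate 3 inside the wild type range (0.65, SE 0.24, adjusted p = 0.156). Wnt4 showed the same layout, at 1.11, 0.593 and 0.593 and at 3.57, 2.9 and 0.739 FPKM (0.84, adjusted p = 0.202). Dkkl1 overlapped, at 10.3, 18.5 and 12.1 and at 6.9, 10 and 11.2 FPKM (-0.49, adjusted p = 0.286). Without Lgr5-DTR luminal replicate 3, 4 members were called, beside 8.57% of all genes: Fzd6, Wnt4 and Wnt7b higher and Sfrp5 lower. Without wild type luminal replicate 1, 2 were called, Wnt11 higher and Sfrp5 lower, beside 4.24% of all genes. With the set of 7 libraries as a covariate Sfrp5 was called lower (adjusted p = 0.0232), beside 750 of 10524 genes. The luminal sort of Lgr5-DTR mice also held more of the markers of some other cells, though not of all. Fibroblast markers summed to 71.9 to 78.3 FPKM in wild type and 116 to 267 after ablation (6 of 10 detected in each, Pdgfra at most 0.229), with 4 of 6 tested higher. Macrophage markers summed to 21.6 to 28.2 and 32.3 to 142 FPKM, with 1 of 7 tested higher. The 8 Schwann cell markers summed to 51.9 to 76.4 and 82.2 to 158 FPKM, with 1 of 6 tested higher, and the 6 pericyte markers to 16.3 to 27.1 and 33.5 to 73.9, with 1 of 5 higher. Their part in the luminal values was not tested.

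Whether the genotype difference itself depended on the population was tested by an interaction term, for each pair of populations. Between stromal and basal cells 4 of 23 members tested were called, beside 2.98% of all genes. Between basal and luminal cells 3 of 21 were called, beside 4.26% of all genes. Between stromal and luminal cells none of 20 was called, beside 2.51% of all genes, and 2 members had an unadjusted p under 0.05, where 13.5% of all genes passed. Under quantile normalization the share of called genes that were higher went from 29.9% to 48.8% for stromal against basal cells and from 25.5% to 42.1% for basal against luminal cells.

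The stromal difference exceeded the basal one by 1.73 for Ror1 (SE 0.35, adjusted p = 0.0152), by 1.54 for Axin2 (SE 0.36, adjusted p = 0.0305) and by 1.51 for Tcf7l1 (SE 0.37, adjusted p = 0.0374). For Wnt9a it lay below the basal one, with a difference of -1.66 (SE 0.35, adjusted p = 0.0172): each Lgr5-DTR stromal library was below each wild type one, and each Lgr5-DTR basal library above. Axin2 stood the opposite way in both populations, higher in value in the stroma and lower in basal cells, although neither difference passed its own test. In basal cells Ror1 passed the filter through its wild type libraries alone. Axin2 and Tcf7l1 would not have met it there without their wild type libraries, nor Wnt9a without its Lgr5-DTR ones. These interaction tests are thus not independent of that filter. Between basal and luminal cells the differences were -2.22 for Wnt11 (SE 0.43, adjusted p = 0.0148), -1.54 for Fzd8 (SE 0.39, adjusted p = 0.0421) and -1.59 for Tcf7l1 (SE 0.41, adjusted p = 0.0484). Wnt11 kept this call in all 20 alternatives in which it was tested, with adjusted p from 0.00185 to 0.0481. Its wild type luminal values, 0.25 to 1.25 FPKM, were near the floor. In luminal cells Wnt11 and Fzd8 would not have met the filter without their Lgr5-DTR libraries, so these tests are not independent of it either.

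The other interaction calls were less steady. Wnt9a lost its call without wild type basal replicate 2 (highest adjusted p over 22 alternatives 0.0615). Ror1 was tested in 10 of 13 fits that left out a library. It lost its call without Lgr5-DTR basal replicate 2 and with a pseudocount of 5 (highest adjusted p over 19 alternatives 0.0606). Axin2 lost it in 8 of 13 fits that left out a library (highest adjusted p 0.11): Lgr5-DTR stromal replicates 1 and 3, Lgr5-DTR basal replicates 2 and 3, wild type stromal replicates 2 and 3 and wild type basal replicates 2 and 3. Tcf7l1 lost it in 12 of 22 alternatives between stromal and basal cells and in 16 of 21 between basal and luminal cells, and Fzd8 in 11 of 21. The count between basal and luminal cells was 7 without Lgr5-DTR basal replicate 1 and 1 without Lgr5-DTR basal replicate 2 or 3, Lgr5-DTR luminal replicate 1 or 2, wild type basal replicate 2 or 3 or any wild type luminal library. That between stromal and basal cells was 0 without wild type basal replicate 2, 1 without Lgr5-DTR basal replicate 2 or wild type basal replicate 3, and 2 without Lgr5-DTR basal replicate 3 or Lgr5-DTR stromal replicate 1 or 3.

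**Figure D5:**
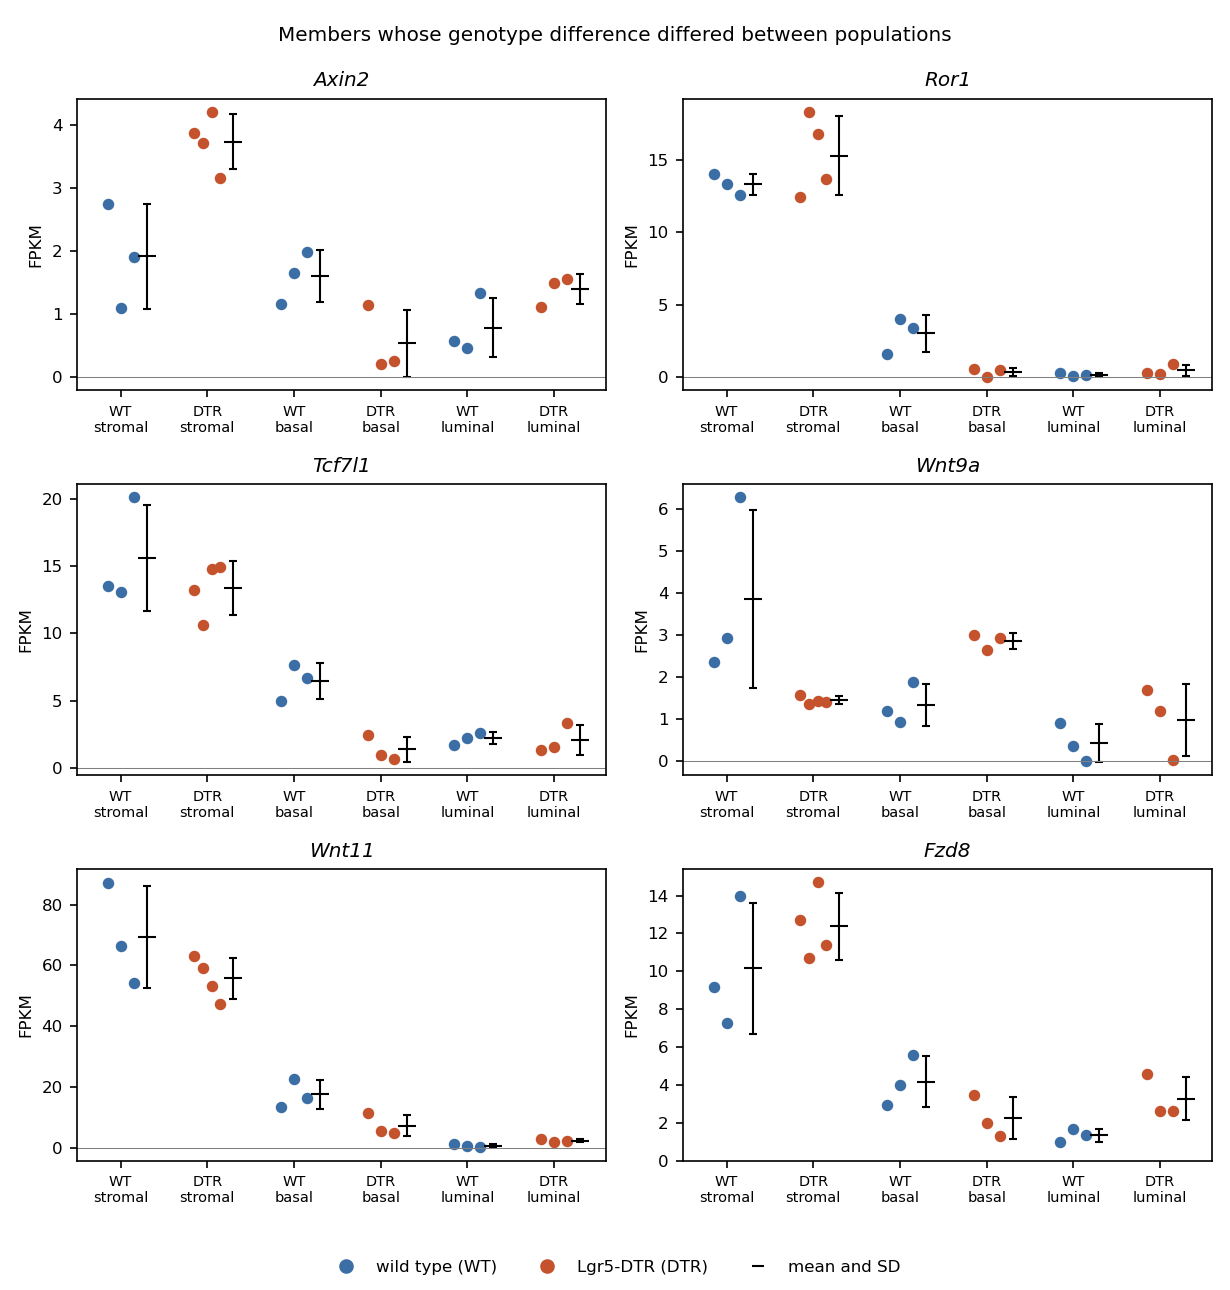
FPKM of the 6 members whose genotype difference differed between 2 populations, in every library of the 6 groups (blue, wild type; orange, Lgr5-DTR; black, mean and SD). Axin2 stands higher after ablation in the stroma and lower in basal cells, Wnt9a the reverse, and Wnt11 falls in basal cells while its luminal values stand higher.

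The rest of the pathway was read from gene lists chosen by function, with results of these data already known. None of the cytoplasmic transducers, such as dishevelled proteins and beta-catenin, was called in any population, of 23 tested in the stroma, 21 in basal cells and 22 in luminal cells (median log2 differences 0.04, -0.02 and 0.14). Ctnnb1, which encodes beta-catenin, was at 210 to 244 FPKM in wild type and 272 to 299 in Lgr5-DTR basal cells (0.31, adjusted p = 0.198). The shares of all genes called, 11.0% in basal and 3.14% in luminal cells, stand beside the counts that follow. In basal cells 4 of 11 receptor turnover genes and other receptors fell. They were Gpc3 (log2 difference -1.86, 16.1 to 19.9 against 2.66 to 5.84 FPKM) and Gpc4 (-1.25, adjusted p = 0.0459), glypicans that hold ligands at the cell surface, Kremen1 (-0.79), a Dickkopf receptor, and Znrf3 (-0.77, adjusted p = 0.0498), a ligase that removes Frizzled receptors from the membrane. Among other secreted modulators Igfbp4 rose in basal cells (1.07, 1.95 to 2.51 against 5.32 to 6.53 FPKM), 1 of 3 tested, and among nuclear cofactors the co-repressor Tle1 fell (-1.22, 31.4 to 38.4 against 9.53 to 21.4 FPKM), 1 of 13.

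Genes known as Wnt targets or feedback genes did not move one way in basal cells: of 20 tested, 4 rose and 3 fell, with a median of 0.04 against 0.02 for all genes. Mmp7, a matrix protease, rose the most, from 18 to 28.5 FPKM up to 115 to 256 (3.06, SE 0.31, adjusted p = 0.00162). Cd44 (1.65), Sox9 (1.04) and Cldn1 (0.83) rose as well. Bambi (-1.96), a decoy receptor of TGF-beta signals, Vcan (-1.03) and Znrf3 fell. In luminal cells 4 of 23 rose and none fell, with a median of 0.56 against 0.10: Cd44 (1.78), Ephb3 (1.88), the antagonist of dishevelled Nkd2 (2.14, 4.13 to 6.95 against 13.7 to 44.8 FPKM) and Wisp1 (1.63), a secreted matricellular protein. Wisp1, at 0 to 0.0887 FPKM in wild type and 1.13 to 4.88 after ablation, passed the filter through the Lgr5-DTR libraries alone, and Vcan in basal cells, at 1.34 to 1.47 and 0.113 to 0.325, through the wild type ones, so neither count supports a direction for the list. In stromal cells Lgr5, which is on this list and on the receptor list, was the only gene of either called (-4.40), of 24 and 12 tested. Of the planar polarity genes Vangl1 rose (0.75) and Rhou fell (-0.78) in basal cells, 2 of 11 tested, and none was called in stromal or luminal cells, of 14 and 10. Many of these genes answer to other signals as well, and the lists were not compared with any other list.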

How the data were processed

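RNA from 19 flow-sorted populations was sequenced as 1 library per sample. Per the submitters' processing notes, the authors used TopHat2 and Cufflinks with build mm10 (versions are not given in the sources used here). Deposited were tables of FPKM values per RefSeq transcript, with the limits of their intervals, and the coverage of each transcript (a signal of mean read depth), per the file headers. FPKM was summed per gene symbol (34535 transcripts, 24343 symbols). Depth in gigabases was read from coverage times length, since read counts were not used here, and no interval per value follows from it.

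Values were tested as log2(FPKM + 1), so differences of low genes are understated. Genes needed at least 1 FPKM in at least 3 of the libraries compared, and genes whose estimate the authors' software marked as failed or over its depth limit were left out of that comparison. limma 3.58.1 with statmod 1.5.0 in R 4.3.3 (trended variance, robust) was fitted over all genes, with Benjamini-Hochberg adjustment and a threshold of 0.05. Python 3.11.15, pandas 2.3.3, numpy 2.4.6, scipy 1.17.1 and matplotlib 3.10.9 were used otherwise. The fit was tested on simulated data. Each genotype comparison used the libraries of 1 population, the wild type comparisons shared 1 fit of 9 libraries, and interaction terms used the libraries of both populations. The 3 interactions share libraries with the genotype comparisons, and the wild type comparisons share libraries among themselves.

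The members and all gene lists were chosen with earlier results of these data known. Per-library values are given for members called in a genotype comparison or interaction or averaging 5 FPKM or more in some group, 31 in all. Those of Fzd4, Fzd5 and Sfrp5 were added after their values were seen. Alternatives were another pseudocount (0.1 or 5), other filters, trimmed mean scaling, quantile normalization, the top transcript per symbol, a block, a joint fit and leaving out each library. A covariate for the 7 libraries that carry low-data marks was chosen after seeing the data.

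Titles of libraries from different populations of 1 genotype share numbers, whose meaning the labels do not state. Between stromal and basal cells the 3 same-numbered pairs correlated at 0.1736, 0.3872 and 0.4078 in their deviations from the group means. There the title number was taken to pair libraries, but the interaction values reported come from the limma fit without this block. Blocking on the title number kept all 4 interaction calls. The adjusted p of limma was then 0.006246 for Axin2, 0.009084 for Ror1, 0.01415 for Tcf7l1 and 0.004068 for Wnt9a. Between basal and luminal cells the 5 pairs ranged from -0.04566 to 0.228, and between stromal and luminal cells there were 2 pairs.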

Additional observations from a re-analysis of the deposited data

Results flagged for a closer look

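Of 31 members checked in the 4 Lgr5-DTR stromal libraries, 2 had a library standing apart from the other 3, where chance gives about 1 group in 20. Dkk3 was at 71.1 FPKM in replicate 3 against 43.1 to 44.3 in the others, and Dkkl1 at 0.565 FPKM in replicate 4, a level below 1 FPKM.

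The genotype difference differed between populations by the interaction term of limma for 7 results, on the log2(FPKM + 1) scale. Between stromal and basal cells it differed for Axin2 by 1.54 (adjusted p = 0.0305), for Ror1 by 1.73 (adjusted p = 0.0152), for Tcf7l1 by 1.51 (adjusted p = 0.0374) and for Wnt9a by -1.66 (adjusted p = 0.0172). Between basal and luminal cells it differed for Fzd8 by -1.54 (adjusted p = 0.0421), for Tcf7l1 by -1.59 (adjusted p = 0.0484) and for Wnt11 by -2.22 (adjusted p = 0.0148).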

How the results depend on the processing

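No called member reversed direction under any alternative. The median of all genes changed sign under quantile normalization, from -0.09 to 0.03 in stromal, 0.02 to -0.0069 in basal and 0.10 to -0.04 in luminal cells. The count of members called between genotypes went from 0 to 2 in stromal cells when all 19 libraries shared 1 fit, beside 366 of 10689 genes. In luminal cells that fit took the count from 0 to 3, beside 871 of 10524 genes. The covariate for the 7 libraries gave 1 there, beside 750 of 10524 genes. In basal cells the count went from 6 to 3 with no filter and 2 with a filter at 5 FPKM. Under quantile normalization it was 10, beside 1270 of 9755 genes. The 5 FPKM filter, which tests fewer genes, gave 21 calls in place of 33 for wild type stromal against luminal cells, and 0 for the interactions of stromal with basal cells and of basal with luminal cells. The first of these was 2 with a pseudocount of 5, and the second was 1 under quantile normalization and 1 with the top transcript per symbol. The interaction of stromal with luminal cells was 1 with a pseudocount of 0.1 and 1 with no filter. For the other changes the cause was not tested. Leaving out 1 library gave 0 to 0 calls in the stroma, 2 to 14 in basal cells and 0 to 4 in luminal cells. It gave 24 to 30, 28 to 34 and 16 to 24 in the wild type comparisons (stromal against basal, stromal against luminal, basal against luminal), and 0 to 6, 0 to 1 and 1 to 7 in the interactions (stromal with basal, stromal with luminal, basal with luminal).

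With the replicate block, members called numbered 4 in the stroma, 1 in basal cells and 1 in luminal cells. Beside them, 1041 of 10689, 213 of 9755 and 755 of 10524 genes tested were called, so the count of all genes moved as well. Lgr5-DTR stromal replicate 4 has no wild type library of its number, so the block takes it out of the stromal genotype difference. Leaving that library out with no block gave 0 members, beside 232 of 10507 genes. Same-numbered libraries correlated at -0.0457 to 0.486 in the stroma, -0.526 to -0.23 in basal cells and -0.124 to 0.38 in luminal cells, with 2, 0 and 1 of 3 pairs best matched to their own number. The higher stromal values, 0.3765 and 0.4855, were of the size taken as pairing between stromal and basal cells. The labels state no pairing across genotypes, so the main fits used none. These values do not settle whether the stromal libraries are paired. With the number in the titles as the block, the wild type comparisons gave 30, 35 and 24 calls and the interactions 4, 0 and 4, in the order above. Of the wild type calls, 26 of 29, 29 of 33 and 16 of 22 held under every alternative in which they were tested. Groups of 3 or 4 libraries limit what can be called: the members' median SE was 0.267 for the stroma, 0.241 for basal and 0.256 for luminal cells.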
